A study of Homo sapiens with 4 samples.

Results

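The genes described here are 10 genes of eicosanoid synthesis, chosen by symbol from the 23622 genes of a deposited RNA-seq table: PLA2G4A, ALOX5, ALOX5AP, LTA4H, LTC4S, ALOX12, PTGS1, PTGS2, PTGES2 and TBXAS1. All 10 were found in the table. RNA was sequenced from MV4-11, a human acute myeloid leukemia (AML) cell line, with 2 libraries of control cells (NC) and 2 of cells in which IRF1 was knocked down (sh-IRF1). IRF1, interferon regulatory factor 1, is a transcription factor, and the comparison asks which transcripts differ once its own transcript is reduced. All 4 libraries are labelled wild type in genotype and came from 1 cell line. The sample labels give the NC libraries no treatment, but the column headers of the deposited counts call them sh_NC. The study's methods describe a control hairpin, sh-NC, in the same lentiviral vector, pLKO.1, with puromycin selection of infected cells. The labels do not say that the libraries of a group came from separate cultures, and the p-values then measure only the spread between these samples, which may be technical.

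Eicosanoids are short-lived lipid mediators made from arachidonic acid, a fatty acid stored in membrane phospholipids. A phospholipase first releases it. In the leukotriene branch, 5-lipoxygenase, helped by its activating protein FLAP, turns it into leukotriene A4, from which LTA4 hydrolase makes leukotriene B4, a neutrophil attractant, and LTC4 synthase makes leukotriene C4, the parent of the cysteinyl leukotrienes. In the prostanoid branch, the cyclooxygenases make prostaglandin H2, which terminal synthases convert to prostaglandin E2, thromboxane A2 and related mediators. Monocytes, neutrophils and mast cells are known for leukotrienes, and platelets for thromboxane and 12-lipoxygenase products.

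The study used hairpins with the following IRF1 target sequences, shown because they define the knockdown. Which of them each sh-IRF1 library carries is not given in the sources used here.
sh-IRF1#1: gcaccagtgatctgtacaact
sh-IRF1#2: ggaaattacctgaggacatca

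The knockdown was read from IRF1 itself (ENSG00000125347). Values are normalized counts, the reads of a gene divided by 1 size factor per library. IRF1 stood at 785 and 738 in the NC libraries and at 429.7 and 432 in the sh-IRF1 libraries. The transcript fell to 56.6% of its NC mean, a log2 fold change of -0.82 (SE 0.0904, limma adjusted p = 1.69e-10). Part of the IRF1 transcript therefore remained in the sh-IRF1 cells, and other annotated genes cover 22.9% of its exonic bases. Depth was similar, with 17635908 to 18695337 reads per library, of which mitochondrial genes took 3.92% to 4.51%. All fold changes below compare sh-IRF1 with NC as log2(normalized count + 1), which makes the changes of low genes look smaller, and a gene was called where its limma p, adjusted by the Benjamini-Hochberg method over 14120 tested genes, was under 0.05. With 2 libraries against 2 an exact permutation test cannot go below p = 0.33 (two-sided), so no such test could pass.

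Of the 10 synthesis genes, 9 were abundant enough to test. ALOX5AP, which encodes FLAP, rose to 114% of its NC level, while ALOX12, the 12-lipoxygenase gene, fell to 67.2% and PTGS1, the cyclooxygenase 1 gene, fell to 81.4%. ALOX5 itself was almost without reads in every library. The 1 gene called higher and the 2 called lower made 33.3% of the tested synthesis genes, against 42.2% of all tested genes, of which 20.3% were called higher and 21.9% lower. The share among the synthesis genes was thus not above the background. Beyond a log2 fold change of 0.5 only ALOX12 was called, 1 of 9, against 15.8% of all tested genes. The groups did not overlap for 8 of the 9, against 69.2% of all tested genes. The fitted changes were positive for 6 and negative for 3 of the tested members, with a median of 0.094 against -0.0019 over all tested genes, and 7 of the 9 were under 0.35 in size.

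**Figure D1:**
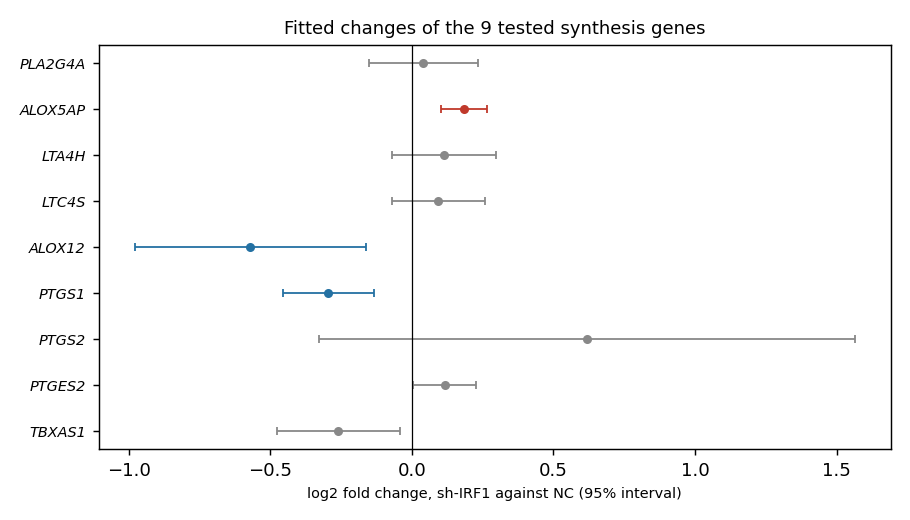
Fitted log2 fold change, sh-IRF1 against NC, of the 9 tested synthesis genes, with points for the limma estimate and bars for its 95% interval (red called higher, blue called lower, grey not called). ALOX5AP lies at 0.19, ALOX12 at -0.57 and PTGS1 at -0.29, and the interval of PTGS2 is the widest, from -0.33 to 1.56.

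PLA2G4A (ENSG00000116711, chr1:186828949-186988981) encodes cytosolic phospholipase A2 alpha, which releases arachidonic acid for both branches. It stood at 556 and 498 in NC and at 563 and 521 in sh-IRF1. The groups overlapped, and the lower NC library lay below both sh-IRF1 libraries. The log2 fold change was 0.041 (95% interval -0.15 to 0.23, limma adjusted p = 0.762), and its sign turned to -0.038 without NC replicate 2 and to -0.015 without sh-IRF1 replicate 1. On chromosome 1 the gene lies 148026 bases from PTGS2.

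ALOX5 (ENSG00000012779, chr10:45374176-45446119) encodes 5-lipoxygenase, the enzyme that opens leukotriene synthesis. It had 0 reads in both NC libraries and 1 read in each sh-IRF1 library. Both groups were under the 3 reads that a count of 0 allows, and no fold change or test is given. In these libraries 3 reads of ALOX5 would correspond to 0.0430 to 0.0456 RPKM (reads scaled to exon length and to library depth), a limit that covers counting error only. In the NC libraries ALOX5AP lay at least 2476 times above that limit per exon length. The transcripts of the enzyme and of its activating protein were thus far apart in level in these cells.

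ALOX5AP (ENSG00000132965, chr13:30713478-30764426) encodes FLAP, a membrane protein that presents arachidonic acid to 5-lipoxygenase. Its normalized count was 3447 and 3439 in NC and 3981 and 3849 in sh-IRF1. Both sh-IRF1 libraries lay above both NC libraries, which were nearly equal. The mean moved from 3443 ± 5.57 (SD, n = 2) to 3915 ± 93.2 (SD, n = 2), a log2 fold change of 0.19 (SE 0.0407, limma adjusted p = 0.000196). The gene stayed called, at 0.16 to 0.21, whichever library was left out.

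The pair of enzymes that use leukotriene A4 were not called. LTA4H (ENSG00000111144, chr12:96000753-96043520), the hydrolase, stood at 542 and 533 in NC and at 557 and 607 in sh-IRF1. Its log2 fold change was 0.11 (95% interval -0.071 to 0.30, limma adjusted p = 0.337), which became 0.18 without sh-IRF1 replicate 1 and 0.052 without sh-IRF1 replicate 2, and genes on the other strand overlap 12.5% of its exonic bases. LTC4S (ENSG00000213316, chr5:179793980-179796647), which joins glutathione to leukotriene A4, stood at 690.4 and 682 in NC and at 738 and 727 in sh-IRF1. For LTC4S the log2 fold change was 0.094 (95% interval -0.069 to 0.26, limma adjusted p = 0.371). In both genes the sh-IRF1 libraries were the higher ones without overlap, but the intervals hold 0.

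ALOX12 (ENSG00000108839, chr17:6996049-7010754) encodes the platelet-type 12-lipoxygenase, which makes 12-hydroperoxyeicosatetraenoic acid. It stood at 131 and 130.4 in NC and at 92.5 and 83.4 in sh-IRF1. The NC libraries were almost the same, and both sh-IRF1 libraries lay below them. The mean fell from 131 ± 0.606 (SD, n = 2) to 87.9 ± 6.45 (SD, n = 2), a log2 fold change of -0.57 (SE 0.203, limma adjusted p = 0.0203). The call ended without any one of the 4 libraries (adjusted p = 0.0501 to 0.130, log2 fold change -0.64 to -0.50) and in DESeq2 (adjusted p = 0.0985). In addition, the antisense gene ALOX12-AS1 and another gene overlap 18.5% of its exonic bases, and as the use of strand is not given in the sources used here, reads of these genes cannot be told apart in the shared bases. ALOX12-AS1 held 120, 130, 113 and 99 reads (NC replicates 1 and 2, then sh-IRF1 replicates 1 and 2), with a log2 fold change of -0.33 (limma adjusted p = 0.191). The pseudogene ALOX12P2 held 132, 88, 137 and 117 reads in the same order, with a log2 fold change of 0.14 (limma adjusted p = 0.619), which turned negative without NC replicate 2 or without sh-IRF1 replicate 1.

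PTGS1 (ENSG00000095303, chr9:122370530-122395703) encodes cyclooxygenase 1, the form most cells carry at rest. It stood at 835 and 951 in NC and at 748 and 706 in sh-IRF1. Both sh-IRF1 libraries were below both NC libraries, and the NC libraries were further from each other than the sh-IRF1 libraries were. The mean fell from 893 ± 82.1 (SD, n = 2) to 727 ± 30.04 (SD, n = 2), a log2 fold change of -0.29 (SE 0.0792, limma adjusted p = 0.00209). Without NC replicate 2 the change was -0.20 (adjusted p = 0.0892), and without sh-IRF1 replicate 2 it was -0.25 (adjusted p = 0.0588), so the call rests on both of these libraries.

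PTGS2 (ENSG00000073756, chr1:186671791-186680922) encodes cyclooxygenase 2, the form that inflammatory stimuli induce. It was a low-count gene, with 16 and 14 reads in NC and 26 and 24 reads in sh-IRF1. The sh-IRF1 libraries held more reads without overlap. The log2 fold change was 0.62 (SE 0.469, 95% interval -0.33 to 1.56, limma adjusted p = 0.304), an interval that holds 0.

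PTGES2 and TBXAS1 stand at the end of the prostanoid branch. PTGES2 (ENSG00000148334, chr9:128120693-128128462) encodes a membrane-associated prostaglandin E synthase and stood at 1686 and 1578 in NC and at 1764 and 1775 in sh-IRF1. Its log2 fold change was 0.12 (95% interval 0.0058 to 0.23, limma adjusted p = 0.084), short of the threshold, and it passed when libraries were scaled to their totals (adjusted p = 0.015) or without NC replicate 1 (0.17, adjusted p = 0.0326). Without NC replicate 2 it was 0.069 (adjusted p = 0.450), and DESeq2 gave an adjusted p of 0.220. TBXAS1 (ENSG00000059377, chr7:139777051-140020325) encodes thromboxane A synthase and stood at 432 and 460.1 in NC and at 399 and 348 in sh-IRF1. Its log2 fold change of -0.26 (SE 0.108, 95% interval -0.48 to -0.041) had an adjusted p of 0.0502 in limma, at the edge of the threshold. TBXAS1 passed under TMM scaling (adjusted p = 0.0485), upper-quartile scaling, a filter at 50, a pseudocount of 5 and without sh-IRF1 replicate 1 (-0.36, adjusted p = 0.0396). It did not pass in edgeR (0.054) or DESeq2 (0.19), and without sh-IRF1 replicate 2 it was -0.16 (adjusted p = 0.371). In PTGES2 both sh-IRF1 libraries were the higher ones, and in TBXAS1 the lower ones.

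**Figure D2:**
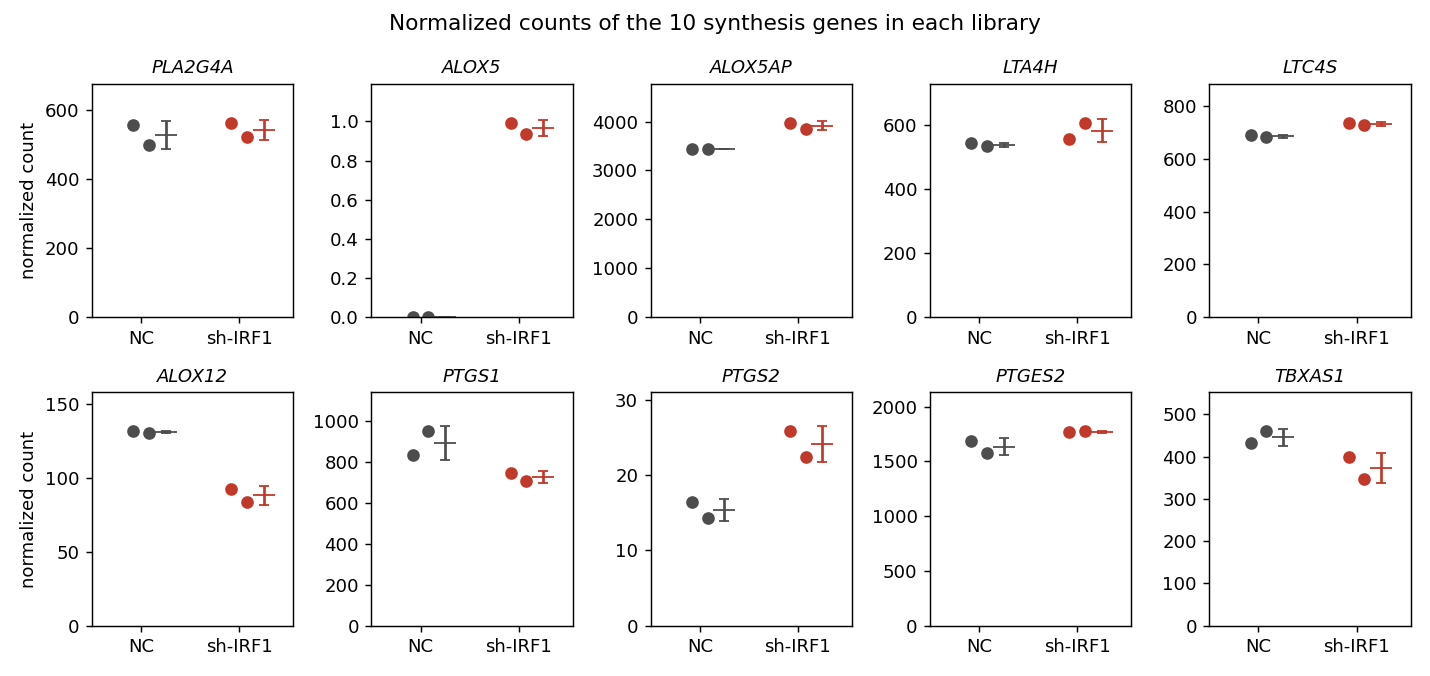
Normalized counts of the 10 synthesis genes in each of the 4 libraries (grey NC, red sh-IRF1; points are libraries, the bar beside them the mean and SD, n = 2), each panel with its own linear axis from 0. The groups overlap in PLA2G4A, ALOX12 stands at 131 and 130.4 against 92.5 and 83.4, and ALOX5 has 0 reads in NC and 1 in each sh-IRF1 library.

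ALOX12, PTGS1 and TBXAS1, with log2 fold changes of -0.57, -0.29 and -0.26, are also transcripts of platelets and their precursors. They are the 3 of 9 tested members with negative changes and were grouped with these values known. Whether other members are platelet transcripts too was not examined. The platelet and megakaryocyte marker list had 6 of its 8 genes in the table (PF4 and PPBP were not among the genes used here), and their summed normalized count was 169 and 202 in NC and 127 and 88.1 in sh-IRF1. Of its 4 tested genes, 0 were called higher and 1 lower, against 21.9% lower over all tested genes. The called gene, ITGA2B, the platelet integrin alpha IIb, fell by 1.04 on the log2 scale (limma adjusted p = 0.00279). GP1BA (-0.67), VWF (-1.24) and TUBB1 (-0.16) were not called (limma adjusted p = 0.104, 0.110 and 0.779). Nothing particular to the list is read from 1 called gene. The part of the platelet marker transcripts in the results on ALOX12, PTGS1 and TBXAS1 was not tested. In bulk RNA, fewer cells of a type and less RNA per cell cannot be told apart.

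For comparison between genes, levels are given as RPKM over the union of a gene's exons. In NC, ALOX5AP (113 ± 0.357 SD, n = 2) was the highest, and LTC4S (31.8 ± 0.322) and PTGES2 (14.8 ± 0.721) came next. PLA2G4A followed at 10.1 and PTGS1 at 8.52. LTA4H (4.01) and TBXAS1 (3.99) had overlapping ranges in NC and could not be ordered. ALOX12 lay at 2.73, PTGS2 at 0.155 and ALOX5 at 0. The other neighbours in this order did not overlap in either group. The order was the same in sh-IRF1, where the ranges of LTA4H (4.27 to 4.68) and TBXAS1 (3.21 to 3.67) did not overlap. The order depends on the length used. Over the longest transcript TBXAS1 lay at 11.3 in NC, above PLA2G4A at 10.1 and PTGS1 at 9.82. In sh-IRF1 the mean of TBXAS1 over the longest transcript was below that of PLA2G4A (10.7), so the order of means then differed between the groups.

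**Figure D3:**
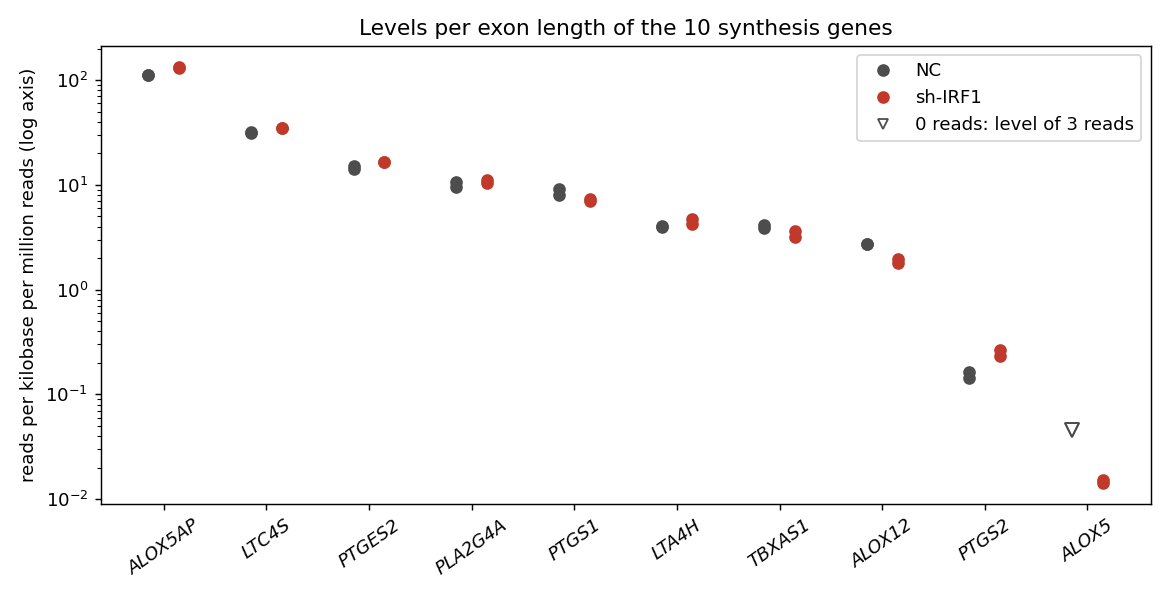
RPKM, reads scaled to exon length and to library depth (log axis), of the 10 synthesis genes, with 1 point per library (grey NC, red sh-IRF1) and an open triangle at the level of 3 reads where a library had 0 reads. Levels run from 113 (ALOX5AP, NC) to 0.155 (PTGS2, NC) and to ALOX5, which lies under its limit of 3 reads.

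Summed over the leukotriene genes ALOX5, ALOX5AP, LTA4H and LTC4S, the level was 149 ± 0.731 RPKM (SD, n = 2) in NC and 172 ± 2.65 in sh-IRF1. Most of that sum is ALOX5AP. The prostanoid genes PTGS1, PTGS2, PTGES2 and TBXAS1 summed to 27.5 ± 0.208 in NC and to 27.4 ± 0.486 in sh-IRF1. On this scale the prostanoid sum differed by less than the spread between libraries, while PTGS1 within it fell. RPKM divides by library totals, whereas the fold changes use the size factors. Scaling to totals set sh-IRF1 higher against NC. With it the log2 fold change of ALOX5AP was 0.23 in place of 0.19, and that of PTGS1 -0.25 in place of -0.29. The sums were not taken with the size factors, so the size of these differences holds for this scaling only. These sums add transcripts of unlike enzymes and measure no product.

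Because IRF1 binds DNA, the promoters of the synthesis genes were searched on both strands for a few motifs. RefSeq (GRCh38.p14) promoters, the 250 bases before each transcription start, were at hand for 9 of the 10 genes (12 starts), all but ALOX5. The paired interferon-response motif TTTCNNTTTC was in none of the 12, and 3.02% of 35116 promoters searched hold it. The ETS core GGAAGT was in 6 of the 12 promoters, 1 each of ALOX5AP, ALOX12, LTA4H, LTC4S, PTGS1 and TBXAS1, and in 19.5% of all promoters. The GC box GGGCGG was in 7 of the 12, of ALOX12, LTC4S, PTGS1 and PTGES2 (42.6% of all promoters), and TATAAA in 3, of PTGS1, PTGS2 and TBXAS1 (10.7%). The RUNX core TGTGGT was in 1 promoter, that of LTC4S (11.0% of all), and the E-box CACGTG in 1 of PTGES2 (6.34%). A match is a description of letters and no evidence of binding, and the absence of a match says only that these letters are not in this window. Promoters of the 3 called genes are shown, with the motif matches on either strand in capitals. For PTGS1 the first of 2 listed starts is given. The other, chr9:122375052-122375301, held a GC box and none of the other motifs, and its sequence is not shown.
ALOX5AP chr13:30713235-30713484 (+ strand): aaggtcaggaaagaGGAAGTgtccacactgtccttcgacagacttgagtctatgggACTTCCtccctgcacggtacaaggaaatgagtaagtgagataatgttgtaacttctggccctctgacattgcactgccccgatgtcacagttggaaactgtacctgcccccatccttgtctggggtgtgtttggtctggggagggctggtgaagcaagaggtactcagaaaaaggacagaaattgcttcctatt
ALOX12 chr17:6995799-6996048 (+ strand): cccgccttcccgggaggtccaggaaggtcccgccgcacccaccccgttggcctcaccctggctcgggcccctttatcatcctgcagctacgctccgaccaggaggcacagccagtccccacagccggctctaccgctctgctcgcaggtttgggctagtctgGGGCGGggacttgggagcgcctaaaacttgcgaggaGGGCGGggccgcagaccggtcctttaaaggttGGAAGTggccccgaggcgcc
PTGS1 chr9:122370283-122370532 (+ strand): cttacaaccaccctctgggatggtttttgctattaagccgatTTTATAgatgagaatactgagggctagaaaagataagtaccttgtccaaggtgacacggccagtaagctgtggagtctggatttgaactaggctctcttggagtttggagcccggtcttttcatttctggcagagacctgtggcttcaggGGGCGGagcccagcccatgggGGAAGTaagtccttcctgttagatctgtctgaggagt
The 3 printed windows hold the ETS core, those of ALOX12 and PTGS1, which fell, as well as that of ALOX5AP, which rose.

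The other genes around these enzymes were taken from 7 lists written by role, with 78 genes in all. Of these, 58 were in the table and 44 were tested, of which 11 were called higher and 15 lower, or 59.1% called in either direction, against 42.2% of all tested genes (20.3% higher and 21.9% lower). Nothing particular to the lists is read from that share. Their median change was 0.029 on the log2 scale, against -0.0019 over all tested genes. Beyond 0.5 in size, 7 of the 44 were called higher and 8 lower, against 15.8% of all tested genes in either direction. Nothing particular to the lists is read from these counts either. Genes named below that do not have the smallest p of their list in their direction were chosen after their values were seen.

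Among other phospholipases and enzymes of 2-arachidonoylglycerol, 3 of 8 tested genes were called higher and 1 lower. Over all tested genes, 20.3% were called higher and 21.9% lower. The lipid 2-arachidonoylglycerol is also a source of arachidonic acid. MGLL, monoacylglycerol lipase, which frees arachidonic acid from it, stood at 617 and 720.0 in NC and at 1152 and 1191 in sh-IRF1. MGLL rose by a log2 fold change of 0.81 (SE 0.0768, limma adjusted p = 2.05e-12). DAGLA, a diacylglycerol lipase that makes 2-arachidonoylglycerol, fell from 166 ± 3.48 to 110.2 ± 8.75 (SD, n = 2), a log2 fold change of -0.59 (limma adjusted p = 0.00745). The DAGLA call ended in DESeq2 (adjusted p = 0.0502) and without sh-IRF1 replicate 2. PLA2G12A, a secreted phospholipase, rose by 0.92 (adjusted p = 3.3e-05), though other genes overlap 15.8% of its exonic bases. PLA2G15, a lysosomal phospholipase, rose by 0.22 (adjusted p = 0.0112), a call that ended in DESeq2 (0.0623), without NC replicate 2 (0.129) and without sh-IRF1 replicate 2 (0.138).

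The list of other lipoxygenases and leukotriene enzymes had 6 tested genes, 2 of them called higher and 1 lower. Over all tested genes, 20.3% were called higher and 21.9% lower. GGT5, a gamma-glutamyl transferase that converts leukotriene C4 to D4, stood at 228 and 197 in NC and at 633 and 658 in sh-IRF1. Its log2 fold change was 1.60 (SE 0.113, limma adjusted p = 2.03e-16). MGST3, a microsomal glutathione S-transferase, rose by 0.44 (adjusted p = 4.94e-05). COTL1, coactosin-like protein, which binds 5-lipoxygenase and actin, fell by 0.13 (adjusted p = 0.00203), a call that ended without sh-IRF1 replicate 1. GGT5 acts after LTC4S, whose own transcript was not called.

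Of the other prostanoid synthases, 4 were tested, 0 were called higher and 3 lower (limma), against 21.9% lower over all tested genes, and their median change was -0.73 on the log2 scale. PTGES3, cytosolic prostaglandin E synthase, which is also the HSP90 cochaperone p23, stood at 10483 and 10462 in NC and at 4273 and 4266 in sh-IRF1. It fell by 1.29 on the log2 scale (limma adjusted p = 1.06e-32). AKR1C3, an aldo-keto reductase with prostaglandin F synthase activity, fell by 1.00 (adjusted p = 0.00459), from 72.4 ± 9.50 to 35.6 ± 3.95 (SD, n = 2). The AKR1C3 call ended without NC replicate 2 (limma adjusted p = 0.0623) and without sh-IRF1 replicate 1 (0.0511). CBR1, a carbonyl reductase that acts on prostaglandin E2, fell by 0.47 (adjusted p = 0.00135), and other genes overlap 18.9% of its exonic bases. Without sh-IRF1 replicate 2 the CBR1 call ended (limma adjusted p = 0.0605). In the list of prostanoid inactivation and transport, 0 of 5 tested genes were called higher and 2 lower. That is 40.0% called, against 42.2% of all tested genes, with a median change of 0.044 on the log2 scale. The 2 were PTGR3 (-0.39, adjusted p = 1.51e-06) and PTGR1 (-0.54, adjusted p = 0.012), both prostaglandin reductases. The PTGR1 call ended in DESeq2 (adjusted p = 0.0702), without NC replicate 1 (0.0914) and without sh-IRF1 replicate 1 (0.105).

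The receptor list had 13 of its 14 genes in the table and 9 tested. Of these, 2 were called higher and 2 lower (44.4%, against 42.2% of all tested genes). TBXA2R, the thromboxane A2 receptor, stood at 887 and 829.9 in NC and at 265 and 215 in sh-IRF1. It fell to 27.9% of its NC level, a log2 fold change of -1.84 (SE 0.106, limma adjusted p = 1.29e-19). PTGIR, the prostacyclin receptor, fell from 253 ± 20.6 to 101.9 ± 2.26 (SD, n = 2), a log2 fold change of -1.30 (adjusted p = 9.64e-09). PTGER4, the prostaglandin E2 receptor EP4, rose from 3812 to 5536 on average (0.54, adjusted p = 2.65e-16). CYSLTR1, a receptor of cysteinyl leukotrienes, rose from 359 to 608 (0.75, adjusted p = 2.94e-08). The receptor of leukotriene B4, LTB4R, stood at 943 and 1059 in NC and at 1026 and 1054 in sh-IRF1 (0.057, 95% interval -0.085 to 0.20, adjusted p = 0.549), with overlapping groups, and turned to -0.026 without NC replicate 1. The receptor of thromboxane A2 thus fell while the synthase TBXAS1 lay at the edge of the threshold.

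For arachidonate synthesis, activation and esterification, 10 genes were tested, of which 2 were called higher and 6 lower, against 21.9% lower over all tested genes, and the median change was -0.23 on the log2 scale. FADS2, the delta-6 desaturase that starts the route from linoleic acid, stood at 9201 and 9081 in NC and at 5646 and 5448 in sh-IRF1. It fell by 0.72 on the log2 scale (limma adjusted p = 3.81e-23). FADS1, the delta-5 desaturase, fell by 0.34 (adjusted p = 3.8e-10), and ACSL3 and ACSL4, which activate fatty acids with coenzyme A, fell by 0.76 and 0.47 (adjusted p = 3.73e-17 and 1.09e-13). LPCAT2, a lysophosphatidylcholine acyltransferase, rose by 0.39 (adjusted p = 1.81e-07), and MBOAT7, which places arachidonate into phosphatidylinositol, rose by 0.21 (adjusted p = 0.000106). LPCAT3, another lysophosphatidylcholine acyltransferase, fell by 0.32 (limma adjusted p = 0.0238), a call that ended in DESeq2 (adjusted p = 0.118). The gene EMG1 overlaps 66.0% of the exonic bases of LPCAT3. Of the last list, epoxide hydrolases and arachidonate cytochromes P450, only 2 genes were tested. Both were called higher, against 20.3% higher over all tested genes. CYP1B1 stood at 265 and 225 in NC and at 1113 and 1042 in sh-IRF1 (log2 fold change 2.14, SE 0.0985, limma adjusted p = 3.81e-23), and other genes overlap 13.0% of its exonic bases. EPHX1, microsomal epoxide hydrolase, rose from 839.6 to 1786 (1.09, adjusted p = 2.4e-19).

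**Figure D4:**
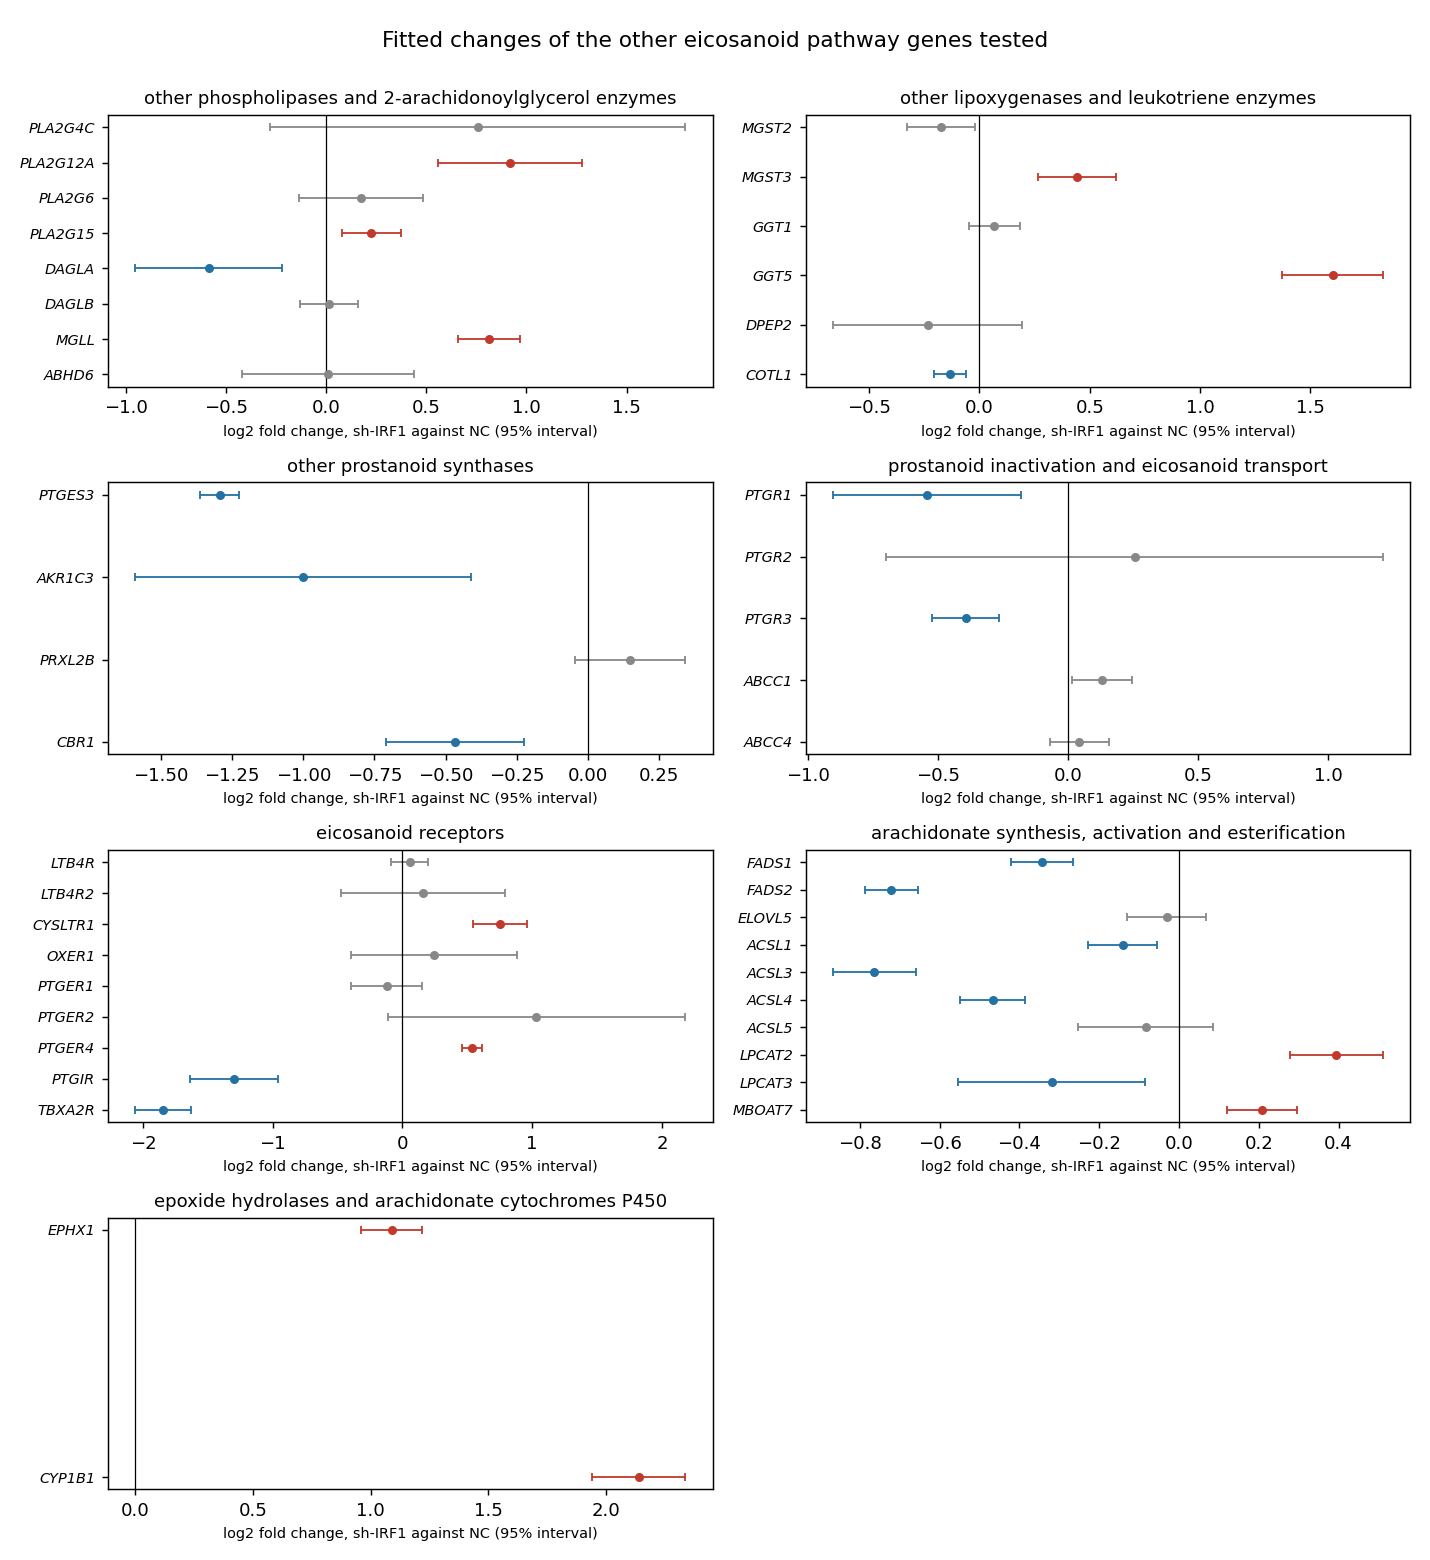
Fitted log2 fold change, sh-IRF1 against NC, of the 44 other tested eicosanoid genes in 7 panels by role, with 95% intervals from limma and a separate axis range in each panel (red called higher, blue called lower, grey not called). TBXA2R at -1.84 and CYP1B1 at 2.14 mark the ends of the range.

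The cell type was checked with marker lists. All 10 myeloid markers were in the table, with a summed normalized count of 44691 to 45436 in NC and 44882 to 44906 in sh-IRF1. Of them 5 were called higher and 4 lower, or 90.0%, against 42.2% of all tested genes. The near-equal sums thus hold opposite moves. CD14, MPO, FLT3 and CSF1R fell to 16.0%, 37.3%, 72.9% and 87.8% of their NC means. CD14 was a low-count gene, with 37 and 41 reads in NC and 11 and 2 in sh-IRF1. The CSF1R call ended in DESeq2 (adjusted p = 0.154). LYZ, ITGAM, AZU1, SPI1 and ELANE rose to 180%, 154%, 123%, 113% and 110%. Mast cell and basophil markers (3 of 8 in the table) summed to 6.16 to 16.4 in NC and 22.5 to 22.9 in sh-IRF1, all low counts. Only KIT of these was tested, with 9 and 6 reads in NC and 14 and 18 in sh-IRF1. KIT was not called (limma adjusted p = 0.240). T cell markers (2 of 5) summed to at most 11.3 in any library. B cell markers (4 of 5) summed to 100.5 and 130.4 in NC and to 254 and 315 in sh-IRF1, and 0 of 5 erythroid markers were among the genes used here. The part of these levels in the results on the synthesis genes was not tested.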

How the data were processed

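RNA of 2 NC and 2 sh-IRF1 MV4-11 libraries was sequenced. HISAT2 (2.0.5) and hg38 are named in the submitters' processing notes, and the counting tool, annotation and strand setting are not given in the sources used here. What the authors deposited is a size-factor signal, in which every gene's reads were divided by 1 factor per library. Reads were recovered from the size of 1 read per library, and all values were whole within 0.01. Identifiers were matched to symbols for 23456 of 23622 genes, and lengths and positions came from GENCODE on hg38.

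The main test was limma (3.58.1, R 4.3.3; trend, robust) on log2(value + 1), over genes that reached 10 in 2 or more libraries, with 42.98 prior degrees of freedom. Alternatives were edgeR (4.0.16) and DESeq2 (1.42.0) on the recovered reads, other scalings, filters, pseudocounts and lengths, a replicate block, and leaving out each library. Scripts were tested on simulated data. Named genes were the 10 members, IRF1 and, per pathway list, the most significant called gene of either sign. Members and lists were chosen with earlier results of these data known.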

Additional observations from a re-analysis of the deposited data

How the results depend on the processing

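Of the synthesis genes, 1 was called higher and 2 lower. Scaling to library totals called 2 higher, and DESeq2 called 1 lower and 0 beyond a log2 fold change of 0.5. TMM scaling, upper-quartile scaling, a filter at 50 and a pseudocount of 5 each called 3 lower. Leaving out each library gave 1 to 2 called higher, 0 to 2 lower and 0 lower beyond 0.5, where ALOX12 was lost each time. The higher and lower calls over all pathway lists ranged from 10 to 12 and from 11 to 15. PLA2G4A ran from -0.038 (without NC replicate 2) to 0.12, and was -0.015 without sh-IRF1 replicate 1. LTB4R ran from -0.026 (without NC replicate 1) to 0.14, and ALOX12P2 from -0.15 (without NC replicate 2) to 0.43, with -0.013 without sh-IRF1 replicate 1. The cause was not tested. Over the longest transcript the leukotriene sum was 202 in NC and 233 in sh-IRF1, and the prostanoid sum 47.2 and 47.3, since these lengths are shorter. IRF1 stayed between -0.86 and -0.78.

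The labels number the replicates 1 and 2 in both groups. The difference between replicates 1 and 2 correlated at r = 0.00467 between the groups over 10559 genes, so the numbers were not taken to pair the libraries. With a replicate block, 1 synthesis gene was called higher and 3 lower, TBXAS1 being added at an adjusted p of 0.0482.

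With 2 libraries per group the spread of a single gene is poorly known. ALOX5, at 0 to 1 reads, could not be tested, and PTGS2, at 14 to 26 reads, gave no value under the filter at 50.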
